A study of Mus musculus with 8 samples.

Results

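The integrated stress response regulators described here are 10 genes of the ATF4 axis, named by symbol: Atf4, Atf5, Ddit3, Trib3, Asns, Sesn2, Gdf15, Ppp1r15a, Cebpb and Nupr1. They were taken by symbol from the 17847 genes of a log2 CPM table (CPM being counts scaled to the library total) of sorted mouse muscle stem cells, and all 10 were found. None of the 10 passed the test between Cox10-/- and wild-type cells (limma, adjusted over all genes tested). Nupr1 came closest, with a log2 fold change of 0.44 ± 0.15 (SE). It passed in some alternative fits, such as that with the set of replicates (1 and 2, or 3 and 4) as a term. In others, such as that with 2 means per genotype, it did not pass. Atf4, Cebpb and Ppp1r15a followed nearly the same order over the 8 libraries. Their genotype difference had opposite signs in replicates 1 and 2 and in replicates 3 and 4. So had those of Ddit3, Atf5 and Gdf15 among the other regulators, and of 36.1% of all genes. The difference between these sets of replicates passed the test for none of the regulators.

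The 8 libraries came from C57Bl/6 mice, 4 labelled wild-type and 4 labelled Cox10-/-, with replicates numbered 1 to 4 in each genotype. Cox10 was deleted in adult animals through a floxed allele and a Pax7-Cre (ERT2) driver, so recombination was directed to Pax7-expressing cells. The treatment protocol of both genotypes lists a single intraperitoneal tamoxifen dose of 200 mg/kg, and cells were purified 2 days after it. The labels do not say whether wild-type animals carried the driver or the floxed allele, nor the age of the animals. Muscle was digested with collagenase and dispase, and cells were sorted that bore CD34, lacked Sca1, CD31 and CD45 and kept out the death stain DAPI. No label states that each library came from its own animal, so p-values measure the spread between these libraries, which may be technical.

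Cox10 makes a step in the synthesis of heme A, a cofactor of cytochrome c oxidase in the respiratory chain. The integrated stress response begins when a kinase that senses amino acid shortage, unfolded protein in the endoplasmic reticulum, double-stranded RNA, or heme and mitochondrial stress phosphorylates the translation factor eIF2. General translation then drops while the Atf4 transcript, which carries upstream reading frames, is translated more, and ATF4 with its partners switches on its target genes. ATF4 is therefore governed largely at translation, and its transcript level is not a measure of its protein. In muscle with defective mitochondria a rise of Gdf15, Trib3, Asns and other ATF4 targets is a well-known response, and in muscle stem cells phosphorylation of eIF2 is known as part of the quiescent state.

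The promoters of the regulators show which of them carry the ATF4 letters near the start of transcription. All 10 genes matched the RefSeq promoter table (build GRCm38.p6, which is not the build of the reads), with 12 promoters of 250 bases before to 50 after the start. The core of the C/EBP-ATF response element, TGATGNAA, was searched on both strands and found in 3 of the 12 promoters, those of Nupr1, Asns and Trib3, against 3.97% of the 32851 promoters in the table. The cyclic AMP response element, TGACGTCA, reads the same on both strands and was found in 1 of the 12, that of Ppp1r15a, against 1.79% of all promoters. No match of one motif overlapped the other. The 150 bases directly before the start follow, 5′ to 3′ on the strand of the gene, for the regulator nearest to the threshold (Nupr1, chr7:126625471-126625620, minus strand), for Asns (chr6:7693210-7693359, minus), and for the genes that moved together, Ppp1r15a (chr7:45526269-45526418, minus), Atf4 (chr15:80255034-80255183, plus) and Cebpb (chr2:167688765-167688914, plus). Capitals mark a motif match.
Nupr1: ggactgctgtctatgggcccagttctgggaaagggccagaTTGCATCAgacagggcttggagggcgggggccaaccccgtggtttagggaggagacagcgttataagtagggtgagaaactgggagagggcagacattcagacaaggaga
Asns: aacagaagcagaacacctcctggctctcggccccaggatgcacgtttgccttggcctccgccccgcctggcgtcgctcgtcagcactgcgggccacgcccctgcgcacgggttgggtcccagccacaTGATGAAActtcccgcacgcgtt
Ppp1r15a: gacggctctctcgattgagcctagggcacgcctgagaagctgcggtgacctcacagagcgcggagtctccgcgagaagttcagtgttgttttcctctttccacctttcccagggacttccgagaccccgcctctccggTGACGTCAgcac
Atf4: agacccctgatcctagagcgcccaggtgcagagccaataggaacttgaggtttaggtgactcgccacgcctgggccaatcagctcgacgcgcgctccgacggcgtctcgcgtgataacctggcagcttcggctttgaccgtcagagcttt
Cebpb: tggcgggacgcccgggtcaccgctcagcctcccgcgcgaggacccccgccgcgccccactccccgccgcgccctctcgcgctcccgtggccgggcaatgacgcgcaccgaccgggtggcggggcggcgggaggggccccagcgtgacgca
In Trib3 the match starts 15 bases after the start, on the opposite strand, and a 30-base window around it (chr2:152344028-152344057, minus) is shown alone.
Trib3: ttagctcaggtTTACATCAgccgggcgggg
Relative to the start, the match began at position -110 on the opposite strand in Nupr1 and at -23 on the strand of the gene in Asns. In Ppp1r15a the cyclic AMP response element began at position -12. These are letter matches in a fixed window, and binding was not measured in this study.

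Depth, the sort and the deletion bear on every value below. Reads counted in genes lay between 1694600 in Cox10-/- replicate 4 and 4650900 in wild-type replicate 3, and wild-type replicate 2 was the next shallowest with 2148100. Cox10 itself was lower by 0.62 ± 0.34 (log2, SE) with a limma adjusted p of 0.246, and its wild-type replicates held 56, 23, 81 and 52 reads against 49, 56, 35 and 7 in Cox10-/- replicates, counting exons inside and outside the deleted part alike. Genes that mark muscle stem cells were present in every library, but 9 of 15 were lower in Cox10-/-, where 8.51% of all genes were lower. Pax7 was down by 1.29 ± 0.11. Whether there were fewer cells of a type or less RNA per cell cannot be told apart in bulk libraries. Among markers of cells that the sort should remove, 6 of 15 endothelial genes were higher, where 7.58% of all genes were higher. The endothelial markers summed to 370 to 398 CPM in wild-type and 442 to 532 CPM in Cox10-/- libraries. In wild-type replicate 2, 5 of the 15 were listed at 0, Lyve1 and Ly6a among them. In wild-type replicate 3 it was 1, in wild-type replicate 4 it was 2, and in Cox10-/- replicate 4 it was 2. The 5 immune markers with a row summed to 30.2 to 39.2 and 31.2 to 64.2 CPM with no call. Ptprc and 9 other immune markers had no row under their symbols and were not analysed here. Of fibro-adipogenic markers 1 of 12 was higher and 1 lower (5054 to 6794 and 5146 to 10640 CPM), against 7.58% and 8.51% of all genes. Of mural markers 2 of 10 were higher and 3 lower, of muscle fibre markers 2 of 13 higher, and of Schwann cell markers 0 of 8 either way. The part of these cells in the differences below was not tested.

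Every regulator was detected in all 8 libraries, with no value at 0. The lowest coverage was 7 reads for Trib3 in Cox10-/- replicate 4 and the highest was 1449 reads for Ppp1r15a in Cox10-/- replicate 2. Across all genes tested by limma, 16.1% passed an adjusted p of 0.05 (7.58% higher and 8.51% lower in Cox10-/-). Among the 10 regulators 0 passed in either direction, and limma-voom on recovered reads also called 0. At an unadjusted p under 0.05 there was 1 regulator, Nupr1, against 31% of all genes. The genotypes overlapped for all 10 regulators, while 21.1% of all genes had no overlap. The log2 fold change was above 0 for 8 regulators and below 0 for 2, with a median of 0.21, where 45% of all genes were above 0 and their median was -0.055.

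**Figure D1:**
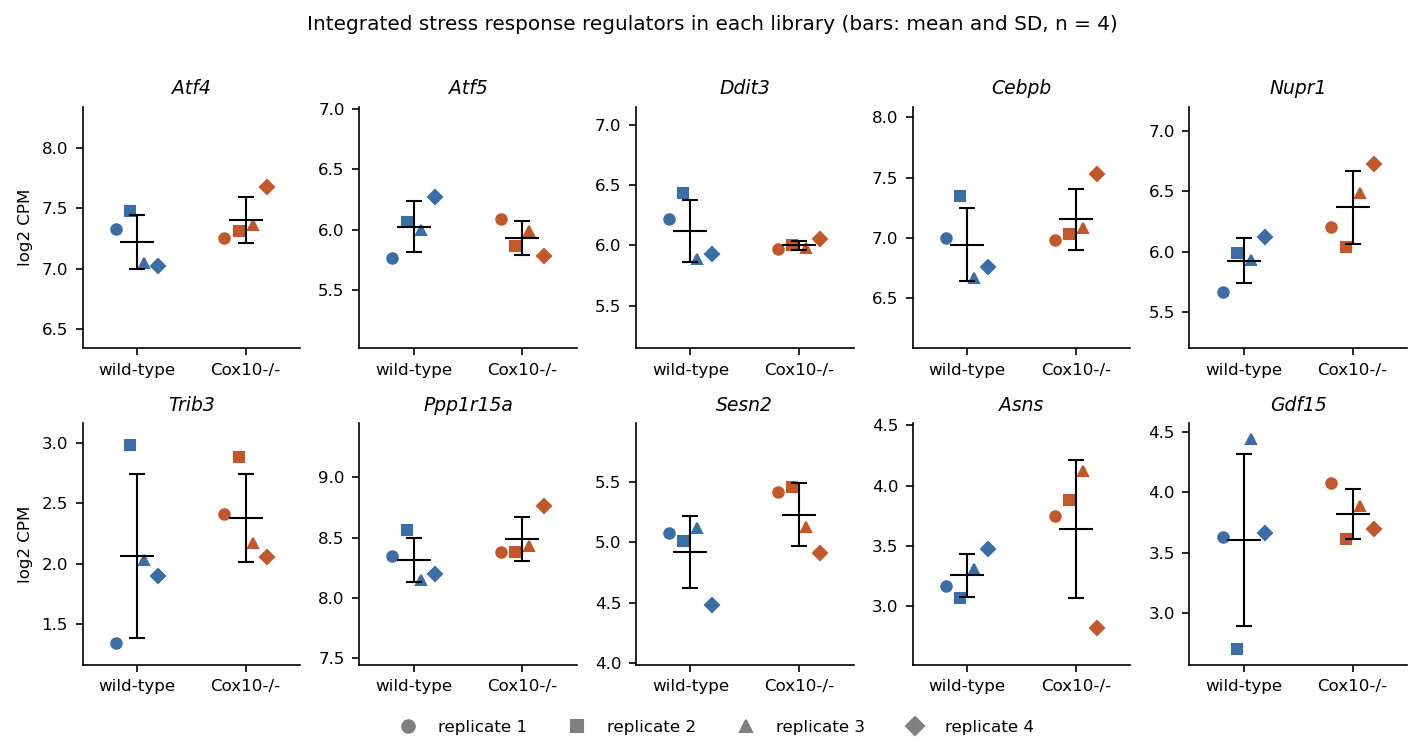
Level of each regulator (log2 CPM, vertical axis, a separate range per gene) in the 4 wild-type and 4 Cox10-/- libraries, 1 point per library with the shape giving the replicate, and bars for the mean and SD. The genotypes overlap for all 10 genes, and Cox10-/- replicate 4 is the highest library for Atf4, Cebpb, Ppp1r15a and Nupr1.

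Atf4 encodes the transcription factor at the centre of the response. Its wild-type levels were 7.33, 7.48, 7.05 and 7.02 log2 CPM in replicates 1 to 4, and its Cox10-/- levels were 7.25, 7.31, 7.36 and 7.68. Wild-type replicates 3 and 4 were the lowest of the 8 and Cox10-/- replicate 4 was the highest, while the other 5 libraries lay between 7.25 and 7.48. The means were 7.22 ± 0.22 and 7.40 ± 0.19 (SD, n = 4), a log2 fold change of 0.18 ± 0.13 (SE, 95% interval -0.10 to 0.46) with a limma adjusted p of 0.366 and an exact two-sided permutation p of 0.257. With 70 ways to assign 8 libraries, the smallest p this permutation test can give is 0.0286.

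Cebpb encodes C/EBP beta, a dimer partner of ATF4. Wild-type replicates held 7.0, 7.35, 6.67 and 6.76 log2 CPM and Cox10-/- replicates 6.98, 7.03, 7.08 and 7.53. As for Atf4, wild-type replicates 3 and 4 were lowest, Cox10-/- replicate 4 was highest and wild-type replicate 2 came next. The log2 fold change was 0.21 ± 0.16 (SE, interval -0.13 to 0.55, limma adjusted p = 0.400). An exon of Tmem189 overlaps Cebpb on the opposite strand in the GENCODE annotation, and since it is not given whether reads were counted by strand, reads of the pair cannot be told apart.

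Ppp1r15a encodes GADD34, the phosphatase subunit that removes the phosphate from eIF2 and so ends the response. Its levels were 8.35, 8.56, 8.15 and 8.20 log2 CPM in wild-type and 8.38, 8.38, 8.43 and 8.76 in Cox10-/- replicates. The order of the libraries was again led by Cox10-/- replicate 4 and closed by wild-type replicates 3 and 4. The difference of 0.17 ± 0.11 (SE, interval -0.08 to 0.42) had a limma adjusted p of 0.335. Tulp2 overlaps it on the opposite strand.

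Ddit3 encodes CHOP, a factor induced by ATF4 that is linked to cell death under prolonged stress. It stood at 6.22, 6.43, 5.89 and 5.93 log2 CPM in wild-type and at 5.97, 6.00, 5.98 and 6.05 in Cox10-/- replicates. The 4 Cox10-/- libraries lay within the wild-type range and had an SD of 0.036 against 0.26 in wild-type. Its log2 fold change of -0.12 ± 0.13 (SE, interval -0.39 to 0.16, limma adjusted p = 0.569) was the lowest of the 10. Mars and the transcript Gm4189 overlap Ddit3 on the opposite strand.

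Atf5 encodes a relative of ATF4 that is known for its role in the mitochondrial unfolded protein response. Levels were 5.76, 6.06, 6.00 and 6.27 log2 CPM in wild-type and 6.09, 5.86, 5.99 and 5.78 in Cox10-/- replicates. Both extremes were wild-type libraries, so the Cox10-/- range lay inside the wild-type one. The difference was -0.09 ± 0.13 (SE, interval -0.37 to 0.18, limma adjusted p = 0.664). Nup62 and Il4i1 overlap Atf5 on the opposite strand.

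Nupr1 encodes a small chromatin-associated stress protein induced downstream of ATF4. Its levels were 5.67, 5.99, 5.93 and 6.12 log2 CPM in wild-type and 6.21, 6.04, 6.49 and 6.73 in Cox10-/- replicates. The genotypes overlapped only in that wild-type replicate 4 lay above Cox10-/- replicate 2. Nupr1 was 1.36-fold higher on the linear scale (interval 1.08 to 1.71), a log2 fold change of 0.44 ± 0.15 (SE) with an unadjusted p of 0.0137, a limma adjusted p of 0.0700 and an exact two-sided permutation p of 0.0571. It passed the threshold without Cox10-/- replicate 2 (adjusted p = 0.0361), with a term for log2 reads (0.0491) and with the set of replicates (1 and 2, or 3 and 4) as a term (0.0170). It did not pass with 2 means per genotype made from the same sets (0.252), nor in the other 7 fits without 1 library (up to 0.188). Nupr1 ranked 3481 of 17801 genes by p, so genes with a smaller p were common.

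Asns, Trib3, Sesn2 and Gdf15 are the effectors among the regulators, with 7 to 191 reads per library. Asns, asparagine synthetase, held 3.17, 3.07, 3.31 and 3.48 log2 CPM in wild-type and 3.75, 3.88, 4.12 and 2.82 in Cox10-/- replicates. Its 3 highest libraries were Cox10-/- replicates 1 to 3, and Cox10-/- replicate 4, with 12 reads, was the lowest of all 8. The difference over all libraries was 0.39 ± 0.28 (SE, interval -0.23 to 1.00, limma adjusted p = 0.384), and without that replicate it was 0.66 with an adjusted p of 0.0580. Sesn2, encoding sestrin 2, an inhibitor of mTORC1 signalling, held 5.08, 5.01, 5.12 and 4.48 in wild-type and 5.42, 5.46, 5.13 and 4.91 in Cox10-/-. Cox10-/- replicates 1 to 3 were above every wild-type library, and wild-type replicate 4 was the lowest. The Sesn2 difference was 0.31 ± 0.18 (SE, interval -0.08 to 0.70, limma adjusted p = 0.268).

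Gdf15 encodes a secreted stress hormone of the TGF-beta family, widely used as a blood marker of mitochondrial disease. It held 3.63, 2.70, 4.44 and 3.66 log2 CPM in wild-type and 4.08, 3.61, 3.89 and 3.70 in Cox10-/- replicates. The lowest and the highest library were both wild-type, at 14 and 101 reads. The difference of 0.21 ± 0.31 (SE, interval -0.47 to 0.89, limma adjusted p = 0.690) became -0.09 without wild-type replicate 2. Trib3, a pseudokinase that restrains AKT and ATF4, held 1.34, 2.98, 2.03 and 1.90 log2 CPM in wild-type and 2.41, 2.88, 2.17 and 2.05 in Cox10-/-, or 7 to 32 reads. Replicate 2 was the highest in both genotypes, and the difference was 0.32 ± 0.37 (SE, interval -0.48 to 1.11, limma adjusted p = 0.602). Without the 2 libraries of lowest depth it was 0.73 for Trib3, 0.60 for Asns and 0.44 for Sesn2. Their limma adjusted p was then 0.152, 0.0724 and 0.136. In that fit Gdf15 went the other way, to -0.05. Of the 10 intervals over all 8 libraries, 9 ended below a log2 fold change of 1, a 2-fold rise, and that of Trib3 did not. That of Asns ended only just below, at 0.997.

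**Figure D2:**
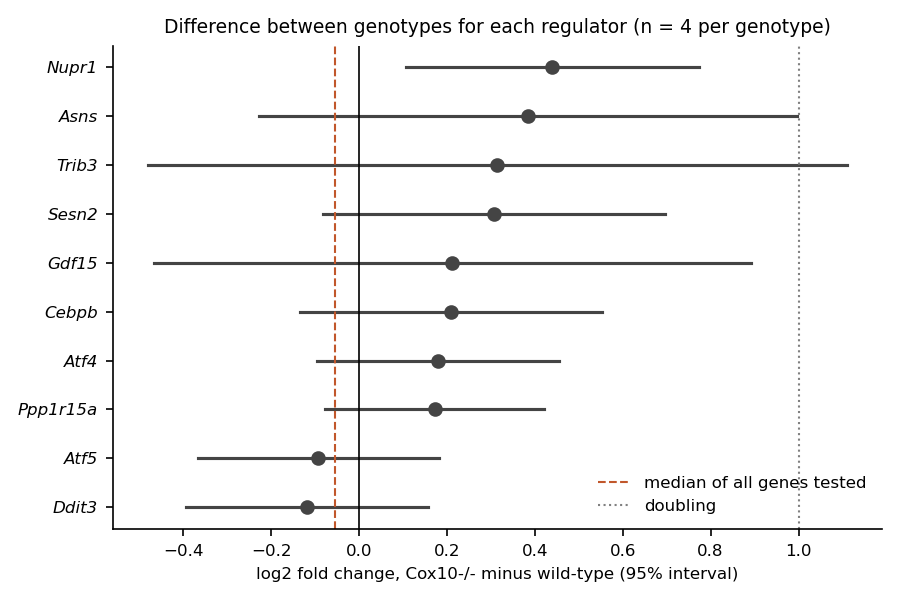
Log2 fold change of each regulator (horizontal axis, Cox10-/- minus wild-type) with its 95% interval from the limma fit, 4 libraries per genotype. The interval of Nupr1 (0.11 to 0.77) alone lies above 0. That of Trib3 alone passes 1, and that of Asns ends just below it, at 0.997. The dashed line is the median of all genes tested (-0.055).

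Over all genes, the closest pairs of libraries in each genotype were replicates 1 with 2 and 3 with 4, at a chi-square per degree of freedom of 2.65 to 3.06 against 4.77 to 7.73 for the other pairs. The labels do not say what these sets share. Within replicates 1 and 2 the log2 fold change was -0.12 for Atf4, -0.17 for Cebpb and -0.08 for Ppp1r15a. Within replicates 3 and 4 it was 0.48, 0.59 and 0.42. Limma on those 4 libraries, 2 per genotype, called the 3 genes and Nupr1 higher (adjusted p = 0.0341, 0.0349, 0.0485 and 0.0240). That is 4 of 10 regulators, where 5.74% of all genes were higher. Atf4, Cebpb and Ppp1r15a moved together over the libraries, so their calls are not separate observations. For Nupr1 the log2 fold changes were 0.30 and 0.58, of the same sign in both sets. In a test added after the data were seen, the difference between the sets was 0.61 ± 0.16 (SE) for Atf4, 0.76 ± 0.21 for Cebpb and 0.50 ± 0.16 for Ppp1r15a. Its unadjusted p was 0.00265, 0.00318 and 0.00898, and its limma adjusted p over all genes was 0.134, 0.138 and 0.172, so none passed. By that test 0.0674% of all genes differed between the sets, and 36.1% of all genes had opposite signs in them.

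The remaining regulators split otherwise. Ddit3 had a log2 fold change of -0.34 within replicates 1 and 2 and of 0.10 within replicates 3 and 4. Asns and Gdf15 went the other way, with 0.69 and 0.68 in replicates 1 and 2 against 0.08 and -0.26 in replicates 3 and 4. Sesn2 (0.40 and 0.22) and Trib3 (0.48 and 0.14) kept their sign, and Atf5 had 0.06 and -0.25. None of these 6 passed the test of the difference between the sets, with limma adjusted p from 0.224 for Ddit3 to 0.819 for Trib3.

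**Figure D3:**
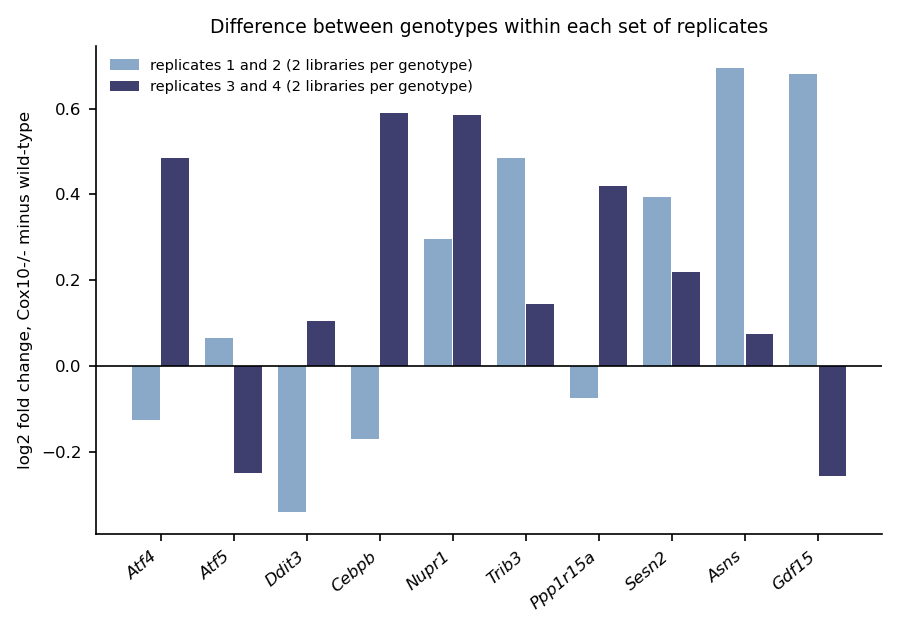
Log2 fold change of each regulator (vertical axis, Cox10-/- minus wild-type) within replicates 1 and 2 (light bars) and within replicates 3 and 4 (dark bars), 2 libraries per genotype in each, with no error bars. Atf4, Cebpb, Ppp1r15a and Ddit3 are below 0 in the first set and above it in the second, and Atf5 and Gdf15 the reverse.

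Immediate-early genes are known to be induced in muscle cells while tissue is dissociated. A list of 30 of them, with no regulator in it, had a mean level of 8.11, 8.44, 7.91 and 7.92 log2 CPM in wild-type replicates 1 to 4 and of 8.15, 8.15, 8.26 and 8.58 in Cox10-/- replicates. Wild-type replicates 3 and 4 were lowest and Cox10-/- replicate 4 was highest, as for Atf4, Cebpb and Ppp1r15a. In all libraries 4 of the 30 were higher (Klf4 by 0.37, Gadd45g by 0.61, Klf2 by 0.39 and Gadd45b by 0.36) and 0 lower, against 7.58% and 8.51% of all genes, with a list median of 0.18. The count higher was 0 with 2 means per genotype, where 445 of all 17801 genes were higher. Without a trend in the variance prior it was also 0, where 949 genes were higher. It was 2 without wild-type replicate 1, Cox10-/- replicate 1 or Cox10-/- replicate 3, where 950, 1087 and 873 genes were. Without wild-type replicate 2 it was 9, where 1182 genes were. Gadd45b lost its call in 7 of 8 fits without 1 library and Klf2 in 3. Within replicates 3 and 4 alone 20 were higher, with a median of 0.50, where 1022 of all 17801 genes were higher. Within replicates 1 and 2 alone 2 were higher and 2 lower, with a median of -0.16. There 1544 of all 17801 genes were higher and 871 lower. The part of these genes, or of the dissociation, in the levels of Atf4, Cebpb and Ppp1r15a was not tested.

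**Figure D4:**
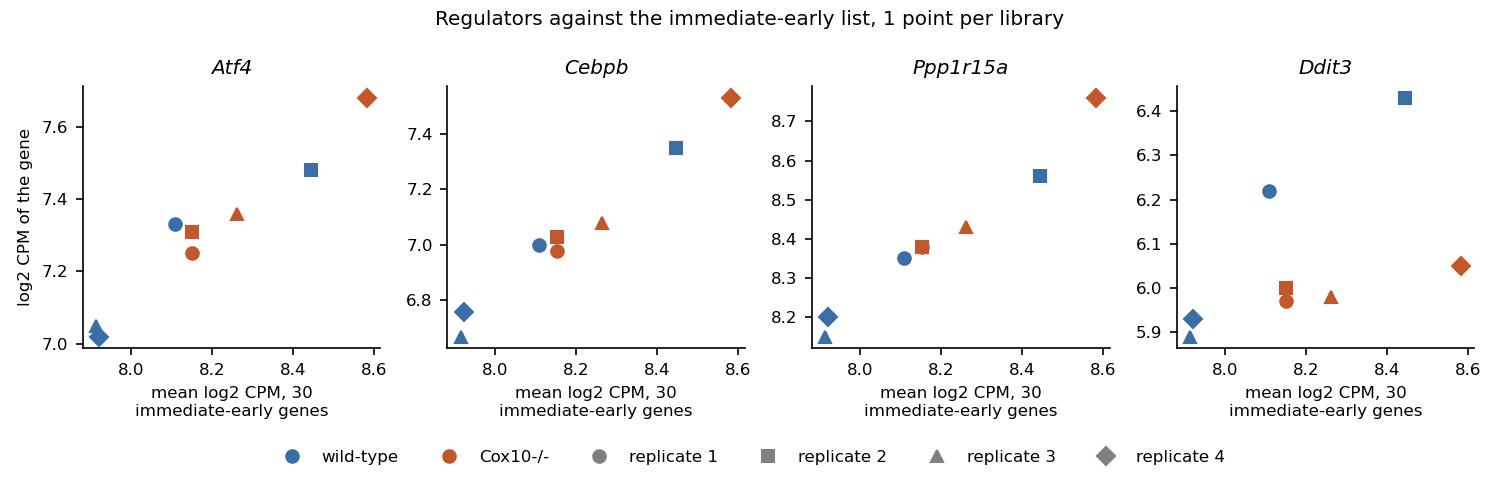
Level of Atf4, Cebpb, Ppp1r15a and Ddit3 (vertical axes, log2 CPM) against the mean log2 CPM of 30 immediate-early genes (horizontal axes), 1 point per library, with colour for genotype and shape for replicate. Points of the first 3 genes lie along a rising line from wild-type replicates 3 and 4 to Cox10-/- replicate 4, and the 4 Cox10-/- points of Ddit3 stay between 5.97 and 6.05.

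The likeness of other genes to Atf4 was measured by Pearson r over the 8 libraries among the 13861 genes whose log2 CPM averaged 2 or more, as a description without a test, since libraries share depth and composition. The genes most like Atf4 were Pcbp2, an RNA-binding protein (r = 0.987), H3f3b, a replacement histone H3 (0.985), Btg2, an antiproliferative immediate-early gene (0.982), Pnrc1, a nuclear receptor coactivator (0.980), and Cebpb (0.979). Ppp1r15a ranked 6 (r = 0.979). The other regulators lay far from Atf4 in that order. Ddit3 had an r of 0.54, Nupr1 0.51, Trib3 0.22 and Sesn2 0.15, while Asns (-0.39), Gdf15 (-0.49) and Atf5 (-0.62) were negative. None of the 5 genes most like Atf4 was called, with log2 fold changes from 0.15 to 0.23.

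Levels relative to Atf4 within a library were compared next for 4 regulators, which cancels the scaling of the library. Ddit3 minus Atf4 was -1.11, -1.05, -1.16 and -1.09 on the log2 scale in wild-type and -1.28, -1.31, -1.38 and -1.63 in Cox10-/- replicates. Every Cox10-/- library was below every wild-type one. The difference of -0.30 had an exact two-sided permutation p of 0.0286, the smallest possible, and an adjusted p over the 4 comparisons of 0.114. The difference did not pass after adjustment. In this design a single difference among 4 cannot reach a lower adjusted p, so it could not have passed alone. The difference was -0.21 within replicates 1 and 2 and -0.38 within replicates 3 and 4. For Atf5 minus Atf4 the difference was -0.27 (exact permutation p = 0.343), for Asns minus Atf4 it was 0.20 (0.657) and for Trib3 minus Atf4 0.14 (0.743), each with overlapping genotypes.

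Upstream of ATF4 stand the 4 kinases of eIF2, the GCN2 cofactors and the OMA1-DELE1 relay that passes mitochondrial stress to the kinase HRI. Of the 8 genes of this list 0 were higher and 1 was lower in Cox10-/-, against 7.58% and 8.51% of all genes. In the list 7 genes were below 0, with a list median of -0.30. By limma 5 of the 8 had an unadjusted p under 0.05, where 31% of all genes had one. The count lower was 3 with the set of replicates (1 and 2, or 3 and 4) as a term, where 2028 of all 17801 genes were lower. With 2 means per genotype it was 0, where 413 genes were lower. Eif2ak2, the kinase PKR that senses double-stranded RNA, held 5.03, 4.94, 5.18 and 5.25 log2 CPM in wild-type and 4.33, 4.52, 4.77 and 3.94 in Cox10-/- replicates. All Cox10-/- libraries were below the wild-type ones, and Eif2ak2 fell by 0.71 ± 0.18 on the log2 scale (SE, limma adjusted p = 0.0202). That call was lost without wild-type replicate 3 or 4 (0.0568 at most, adjusted) and when 2 means stood for each genotype (adjusted p = 0.112). Oma1, the inner-membrane protease of the relay, also did not overlap between genotypes (-0.76 ± 0.25, adjusted p = 0.0546). Gcn1l1 (-0.37), 0610009O20Rik, the symbol of Dele1 in the table (-0.48), and Impact (0.27) did not pass.

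The list of eIF2 and eIF2B subunits and phosphatase subunits had 0 calls among 13 genes by limma, 4 at an unadjusted p under 0.05, where 31% of all genes had one, and a median of -0.10. The share of small p-values is that of all genes. The 4 with the smallest p were Ppp1cc, a catalytic subunit of protein phosphatase 1 (0.62 ± 0.21, limma adjusted p = 0.0586), the eIF2B subunits Eif2b5 (-0.35, 0.0742) and Eif2b3 (-0.54, 0.0854), and Eif2s1, the subunit of eIF2 that is phosphorylated (-0.32, 0.137). Eif2s3x, an X-linked subunit of eIF2 named after its values were seen, held 7.55, 7.55, 6.46 and 6.42 log2 CPM in wild-type and 7.33, 7.43, 7.36 and 7.50 in Cox10-/- replicates. Wild-type replicates 3 and 4 thus stood about 1 log2 unit below the other 6 libraries for this gene. They were also the lowest for Atf4, Cebpb and Ppp1r15a. Whether the sex of the animals differed between libraries was not tested. The 22 dimer partners and relatives of ATF4 and CHOP had a median of -0.04 that became 0.04 after median centring. Of them 0 were higher and 3 lower, against 7.58% and 8.51% of all genes. The 3 were Dbp, a circadian factor (-1.44 ± 0.14, limma adjusted p = 4.43e-05), Creb1, the cyclic AMP response factor (-0.89 ± 0.15, 0.00226), and Jdp2, a repressor of the AP-1 family (-0.44 ± 0.12, 0.0291). Jdp2 lost its call in 5 of 8 fits without 1 library.

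A list of other ATF4 targets, without the regulators, included genes called in both directions. It holds transporters, autophagy genes and secreted proteins, and also the amino acid enzyme Gpt2 and the mitochondrial tRNA synthetase Cars2. Of 31 measured, 9 were higher and 1 lower in Cox10-/-, against 7.58% and 8.51% of all genes, with 20 above 0 and a median of 0.12. Map1lc3b, the autophagosome protein LC3B, held 7.35, 7.56, 7.42 and 7.42 log2 CPM in wild-type and 7.94, 7.90, 8.13 and 8.13 in Cox10-/- replicates and rose by 0.59 ± 0.09 (SE, limma adjusted p = 0.000984). Stc2, the secreted glycoprotein stanniocalcin 2, held 4.48, 4.03, 4.82 and 5.01 against 5.28, 5.52, 6.12 and 5.85 and rose by 1.11 ± 0.23. Slc1a5, a glutamine transporter, rose by 0.75 ± 0.15 and Klhl24, an adaptor of a ubiquitin ligase, by 0.49 ± 0.09. These 4 did not overlap between genotypes and kept their call in all 8 fits without 1 library.

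The other 5 that rose, Kdm7a (0.44), Chac1 (0.91), Slc3a2 (0.38), Vldlr (0.56) and Ddit4 (0.47), are outside the rule for named genes and were picked with their values in view. The 1 that fell was Jdp2, which is also in the list of dimer partners. Chac1, which degrades glutathione and is induced by ATF4 and CHOP, held 3.50, 3.22, 3.24 and 3.69 log2 CPM in wild-type and 4.2, 3.81, 4.79 and 4.49 in Cox10-/- replicates. The genotypes did not overlap, but the call of Chac1 (limma adjusted p = 0.0209) was lost in 2 of 8 fits without 1 library. Vldlr and Ddit4 lost theirs in 4 of those fits, Slc3a2 in 3 and Kdm7a in 0. Over the list, 6 were higher without wild-type replicate 1, without wild-type replicate 3 or without Cox10-/- replicate 3. In those fits 950, 1218 and 873 of all 17801 genes were higher. With 2 means per genotype 3 were higher, where 445 of all genes were. Within replicates 1 and 2 alone 7 were higher and 0 lower, where 1544 and 871 of all 17801 genes were. Within replicates 3 and 4 alone 13 were higher and 3 lower, where 1022 and 1952 of all 17801 genes were. Fgf21, Slc7a3 and Adm2 of this list had no row under these symbols and were not analysed here.

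A further list holds amino acid enzymes and tRNA synthetases, also ATF4 targets. Of 25 genes without Asns, 2 were higher and 6 lower in Cox10-/-, against 7.58% and 8.51% of all genes, and 17 were not called. The median was -0.29, with 21 below 0. The count lower was 4 with 2 means per genotype, where 413 of all 17801 genes were lower. Without wild-type replicate 3 it was also 4, where 985 genes were lower. It was 11 with the set of replicates (1 and 2, or 3 and 4) as a term, where 2028 genes were. The falls include Psat1 of serine synthesis (-1.12 ± 0.21) and Pycr1 of proline synthesis (-2.41 ± 0.41). Both rises were enzymes of cysteine synthesis from homocysteine, Cbs (1.75 ± 0.26) and Cth (1.86 ± 0.31). Asns itself, at 0.39 ± 0.28, was not called in either direction.

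**Figure D5:**
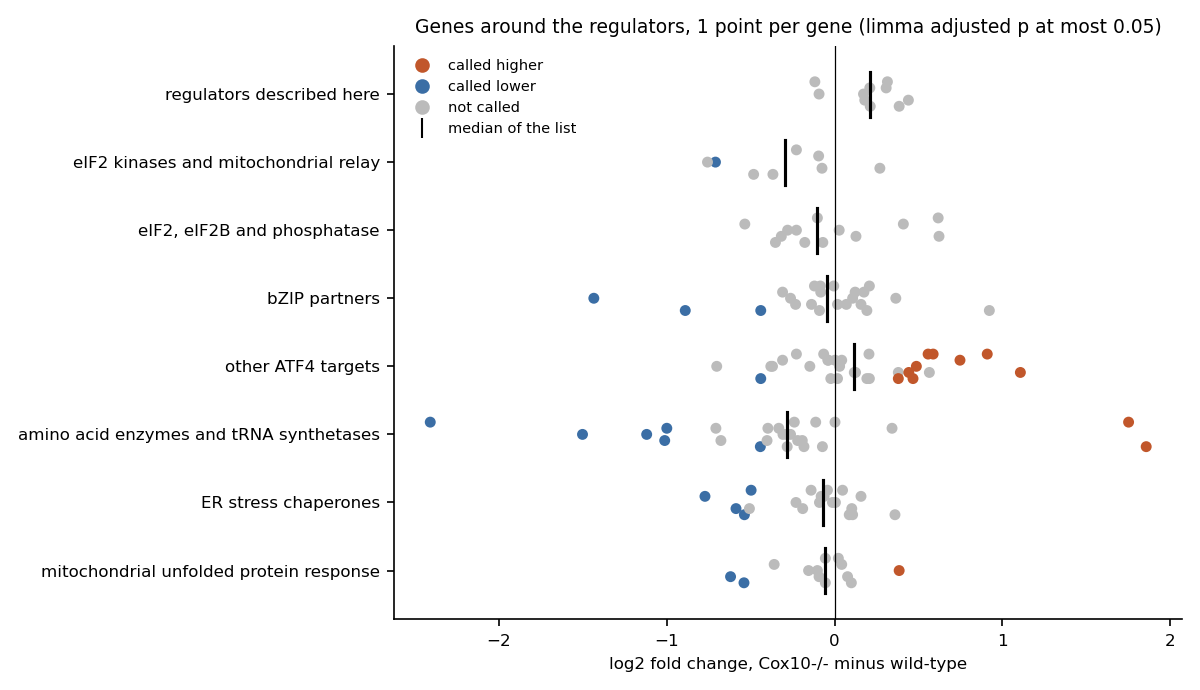
Log2 fold change (horizontal axis, Cox10-/- minus wild-type) of each gene of the regulators and of 7 surrounding lists, 1 point per gene, coloured where limma called it higher or lower, with a black tick at the list median. No regulator is coloured, 9 other ATF4 targets are called higher, and 6 amino acid enzymes or tRNA synthetases are called lower.

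Chaperones of the ATF6 and XBP1 arms of the endoplasmic reticulum response had 0 of 20 genes higher and 4 lower, against the same 7.58% and 8.51%. Pdia4 fell by 0.50 ± 0.08 and Pdia6 by 0.54 ± 0.10, both protein disulfide isomerases. Creld2 fell by 0.77 ± 0.15 and Hyou1 by 0.59 ± 0.16. With 2 means per genotype limma called 0 of the 20, where it called 858 of all 17801 genes. Of 13 matrix chaperones and proteases of the mitochondrial unfolded protein response, 1 was higher and 2 lower, against 7.58% and 8.51% of all genes. Clpx rose (0.39 ± 0.11), and Trap1 (-0.62 ± 0.11) and Spg7 (-0.54 ± 0.16) fell. Only the share higher was close to that of all genes. Clpx and Spg7 each lost the call in 6 of 8 fits without 1 library. The medians of both lists, -0.07 and -0.055, were above 0 after median centring.

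Sesn2 and Gdf15 are also known targets of p53, and neither was called. Of 18 other p53 targets 4 were higher and 3 lower, against 7.58% and 8.51% of all genes, with a median of 0.05. The 4 with the smallest p rose. They were Trp53inp1, an autophagy and stress protein (1.36 ± 0.15), Cdkn1a, the cell cycle inhibitor p21 (0.72 ± 0.10), Sesn1, the paralog of Sesn2 (0.59 ± 0.13), and Perp (0.97 ± 0.26). Sesn1 held 6.76, 6.68, 6.86 and 7.02 log2 CPM in wild-type and 7.12, 7.30, 7.51 and 7.76 in Cox10-/- replicates, with no overlap, whereas Sesn2 overlapped. Perp lost its call in 3 of 8 fits without 1 library. The 3 that fell, named after their values were seen, were Pmaip1 (-1.21 ± 0.33), Plk2 (-0.55 ± 0.17) and Eda2r (-0.51 ± 0.16), and they lost their calls in 4, 5 and 7 of those 8 fits.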

How the data were processed

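RNA was measured in 8 libraries (4 wild-type, 4 Cox10-/-) prepared with the SMARTer stranded pico kit, per the labels' protocols. Per the submitters' processing notes, the tools were HISAT2, Trim Galore, DESeq2 and featureCounts and the build was mm9. The sources used here do not give versions or strand counting. The deposited values are log2 CPM, rounded to 2 decimals, in which every CPM of 1 or less stands at 0. A further 1054 rows (5.58%) held no gene and were left out.

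Genotypes were compared with limma 3.58.1 (R 4.3.3) on these values with no pseudocount, a variance prior with a trend and Benjamini-Hochberg adjustment over 17801 genes with a value above 0 in at least 4 libraries (46 removed). The threshold was an adjusted p of 0.05, and each log2 fold change is given with its standard error (SE). Values up to 20 reads were whole multiples of 1 read within 0.1 in 100% of cases. Recovered reads gave the depth and a limma-voom alternative. Single values were also tested by exact permutation over libraries. The code was tested on simulated data. Replicate numbers were not taken as pairs, since the correlations of same-numbered deviations were 0.0453, 0.137, 0.109 and 0.130.

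The genes described and the lists around them were chosen with earlier results of these data known. Named genes were the 10 regulators, Cox10, the called genes of each list (the 4 with the smallest p where more than 4 or none were called) and the 5 genes most like Atf4. Genes in 2 lists count in both, and regulators were left out of the other lists.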

Additional observations from a re-analysis of the deposited data

Results flagged for a closer look

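Ppp1r15a stood at 8.76 log2 CPM in Cox10-/- replicate 4, with the other 3 Cox10-/- libraries between 8.38 and 8.43. Its gap to the nearest library was 0.868 of the range of the group, above Dixon's 95% critical value for 4 samples. In all, 20 groups (10 genes in 2 genotypes) were examined and 1 met this criterion, and chance gives about 1 in 20. This library also had the lowest depth, 1694600 reads, and the highest mean of the immediate-early list, 8.58 log2 CPM; their part in the value was not tested. Without it the difference of Ppp1r15a was 0.08 with a limma adjusted p of 0.638.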

How the results depend on the processing

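Over 19 alternatives per regulator, which leave out the fits within replicates 1 and 2 and within replicates 3 and 4, 9 of 10 kept the direction of their log2 fold change and 9 of 10 (Nupr1 excepted) kept their side of the threshold. Within those 2 sets 6 of 10 changed direction in 1 set (Atf4, Cebpb, Ppp1r15a, Ddit3, Atf5 and Gdf15). Of all genes, 36.1% had opposite signs in the 2 sets. Among the 19 alternatives, 2 changed the direction of Gdf15. Its log2 fold change was -0.05 without the 2 libraries of lowest depth and -0.09 without wild-type replicate 2. The latter was the lowest of its 8 values without 1 library (the highest was 0.49). The count of regulators called higher, 0, became 1 (Nupr1) with the replicate block (limma adjusted p = 0.0279), with the set of replicates (1 and 2, or 3 and 4) as a term, and with a term for log2 reads, and lay between 0 and 1 over the 8 fits without 1 library. It was 4 (Atf4, Cebpb, Ppp1r15a and Nupr1) in replicates 3 and 4 alone. The replicate block called 3201 of all genes; same-numbered libraries did not always correlate best with each other. All genes called numbered 2863, 858 with 2 means per genotype, and 1840 (without Cox10-/- replicate 3) to 2907 (without wild-type replicate 2) in the fits without 1 library, and 1902 without wild-type replicate 1. Of the called genes 47.1% were higher, and 58.4% after median centring, which moved the median of all genes from -0.055 to 0.0275. Trib3 minus Atf4 lay between -0.14 and 0.35 without 1 library, with -0.14 when wild-type replicate 1 and -0.06 when Cox10-/- replicate 2 was left out. In replicates 1 and 2 and in replicates 3 and 4, Asns minus Atf4 was 0.82 and -0.41, and Atf5 minus Atf4 was 0.19 and -0.74. Ddit3 minus Atf4 stayed below 0 throughout, and the replicate block gave it an exact sign-flip p of 0.125, the smallest possible. The causes of these changes were not tested. Trib3 rested on 7 to 32 reads per library, Asns on 12 to 64 and Gdf15 on 14 to 101. Over the 19 alternatives Trib3 lay between 0.07 and 0.73 and Asns between 0.23 and 0.66. The interval of Trib3 (-0.48 to 1.11) does not exclude a 2-fold rise, and that of Asns ended only just below one, at 0.997.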
